A study of Mus musculus with 12 samples.

Results

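Genes of the oligodendrocyte lineage were followed in RNA pulled down with astrocyte ribosomes. The members are 31 marker genes of oligodendrocyte precursors and of myelinating oligodendrocytes, taken by gene symbol from the 52550 features of the count table, and each symbol matched 1 feature. The groups were Fmr1-/y (knockout) and Fmr1+/y (wild-type) mice that both carried the Aldh1l1-TRAP transgene on an FVB/C57 background, at postnatal day 40, with Fmr1 knockout in 3 libraries (knockouts 14, 16 and 18) and wild type in 3 (wild types 13, 15 and 17). TRAP (translating ribosome affinity purification) pulls eGFP-tagged ribosomes from a tissue homogenate with an anti-eGFP antibody. The tag follows the Aldh1l1 promoter, which is active in astrocytes, so the tissue was somatosensory cortex with all its cell types and the selection came from the tag alone. RNA of the unselected homogenate was not analysed here, so the values give levels within the pull-down and no enrichment over the tissue. The labels do not say whether each library came from a separate mouse, so the tests reflect variation among the 6 libraries, which may be technical.

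Oligodendrocytes wrap axons in myelin, a stack of membrane rich in galactolipids and cholesterol and held together by a small set of abundant proteins. They arise from precursors that carry the growth factor receptor PDGFRα and the proteoglycan NG2, pass through a short premyelinating stage, and then switch on the myelin genes under the transcription factors SOX10 and MYRF. They are not the cells that the Aldh1l1 promoter marks. Some of the same genes, such as Olig2 and Car2, are also known from subsets of astrocytes, and Mbp and Mobp RNA is known to be carried into cell processes for local translation.

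Total counts ran from 10953958 to 21696862 in the knockout libraries and from 19787520 to 22397202 in the wild-type libraries. Features known to collect ribosomal RNA reads (CT010467.1, Lars2 and AY036118) held a share of 35.6% in knockout 14 and 45.1% in knockout 16, with 0.892% to 7.45% elsewhere. Levels are therefore CPM (counts scaled to a fixed library total) with TMM scaling, which sets the libraries on a common scale from the bulk of the genes. Fmr1, the deleted gene, had 4.32, 4.22 and 1.32 CPM in knockouts 14, 16 and 18, against 31.6, 38.4 and 37.00 CPM in wild types 13, 15 and 17, so each label fitted its library. The 18 astrocyte markers summed to between 31322 and 37449 CPM in the knockout libraries and between 31443 and 39227 CPM in the wild-type libraries.

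The lineage genes had at least 3 counts, the floor used here, in every library except Enpp6 in knockout 16. No genotype difference among them passed the test, and libraries of one genotype often differed widely. In a pull-down the number of cells of a type and the RNA per cell cannot be told apart. Nor can untagged RNA carried along be told apart from RNA of the tagged astrocytes themselves. Both limits hold for each level below. All 31 members passed the filter on low counts, and none had a count of 0 in any library. By edgeR's quasi-likelihood test 0 of the 31 members passed a threshold of 0.05 on the adjusted p, where 0% of all 14990 tested genes did. The deleted gene was not called either: Fmr1, with a log2 fold change of -3.53, SE 0.41 and every knockout below every wild type, had an adjusted p of 0.2998 in this test. At an unadjusted p under 0.05 there were also 0 members, against 1.77% of all tested genes (0.734% higher and 1.03% lower in the knockout). DESeq2 called 0 members (0.0534% of all genes), edgeR's exact test 0 (0.06%) and limma voom 0 (0%). The smallest member p was that of Olig2 in each of these tests, 0.0626 unadjusted in the quasi-likelihood test (adjusted p = 1.00). Of the members 17 had a log2 fold change (knockout over wild type) above 0 and 14 below, with a median of 0.020, while 49.6% of all tested genes lay above 0 with a median of -0.0019. In 0 members did every knockout lie above every wild type (2.95% of all tested genes), and in 0 did every one lie below (3.25%). The exact permutation test of 3 libraries against 3 cannot give a two-sided p below 0.1. Left out singly, knockout 18 turned the median of the members to -0.16 and wild type 13 turned it to -0.079, while without knockout 16 it was 0.30, without knockout 14 0.037, without wild type 15 0.078 and without wild type 17 0.22.

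**Figure D1:**
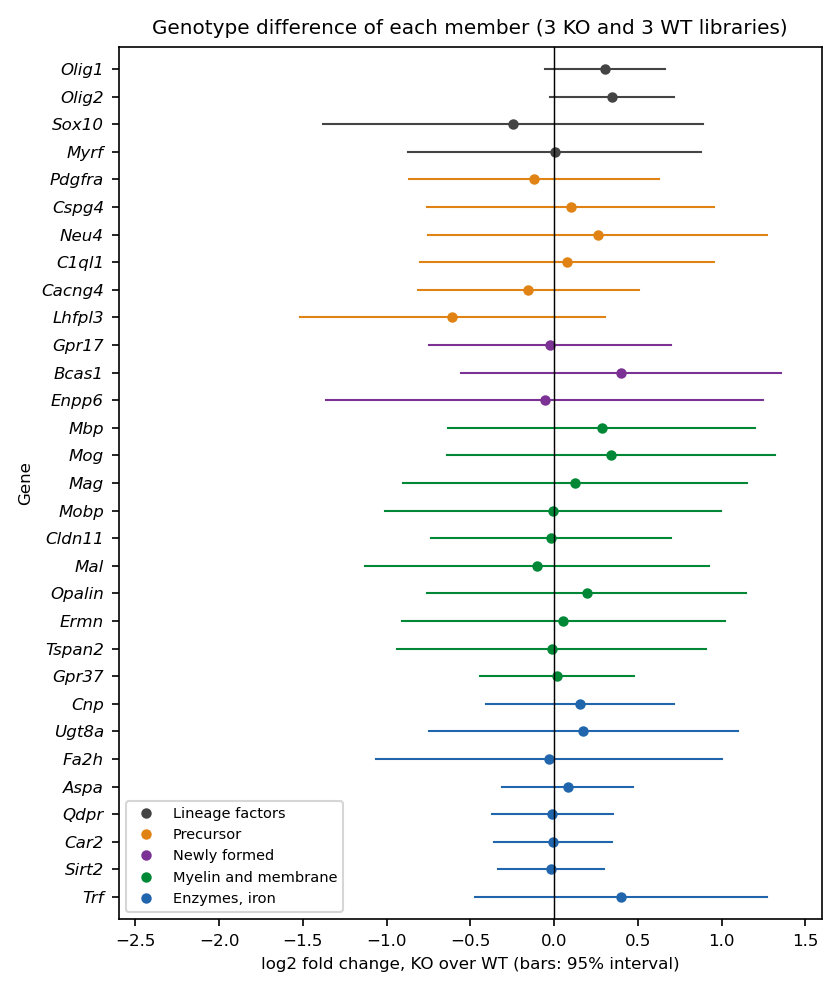
Log2 fold change of each of the 31 members, knockout over wild type, on the horizontal axis with its 95% interval from edgeR's quasi-likelihood fit on 3 knockout and 3 wild-type libraries; colours mark the role of the gene. The points run from -0.61 for Lhfpl3 to 0.40 for Trf, and every interval includes 0.

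Among the lineage transcription factors, Olig1 and Olig2 had the narrowest spread between libraries and the smallest p of all members, without passing the test. Olig1 and Olig2 are neighbouring genes for basic helix-loop-helix factors that specify the lineage, on chromosome 16 (mm10) from 91269769 to 91271939 and from 91225550 to 91228677. Olig2 stood at 39.8, 29.9 and 33.8 CPM in knockouts 14, 16 and 18, against 30.7, 26.7 and 24.03 CPM in wild types 13, 15 and 17. Its means were 34.5 ± 5.01 CPM over the knockouts, against 27.2 ± 3.38 CPM over the wild types (SD, n = 3 each; log2 fold change 0.35, SE 0.16), and the groups overlapped, since wild type 13 lay above knockout 16. Olig1 stood at 182, 156 and 146 CPM in knockouts 14, 16 and 18, against 149, 129 and 115 CPM in wild types 13, 15 and 17. The means of Olig1 were 161 ± 18.9 CPM over the knockouts, against 131 ± 17.1 CPM over the wild types (SD, n = 3 each; log2 fold change 0.30, SE 0.16), and wild type 13 again lay above the lowest knockout. The 95% interval of the log2 fold change ran from -0.023 to 0.72 for Olig2 and from -0.056 to 0.66 for Olig1, so neither direction was settled at this replicate number.

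The factors that drive differentiation followed another pattern across the libraries. Sox10, which is needed through the whole lineage and activates myelin genes, had 2.85, 1.55 and 4.797 CPM in knockouts 14, 16 and 18, against 2.001, 3.48 and 5.82 CPM in wild types 13, 15 and 17. Knockout library 16 and wild type 13 were the low libraries of their genotypes, and knockout 18 and wild type 17 the high ones. Myrf, the membrane-bound factor that turns on the myelin programme in maturing cells, had 5.302, 2.53 and 8.24 CPM in knockouts 14, 16 and 18, against 4.51, 6.24 and 5.74 CPM in wild types 13, 15 and 17. Its counts were 65, 18 and 213 counts in knockouts 14, 16 and 18, against 106, 158 and 150 counts in wild types 13, 15 and 17, so the low value of knockout 16 rests on few reads. The log2 fold change was -0.25, SE 0.50 for Sox10 and 0.0034, SE 0.38 for Myrf, and both groups overlapped. The median of the 4 factors was 0.15, and it turned to -0.049 without knockout 18. Without knockout 16 it was 0.32.

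Precursor genes were counted in every library of both genotypes, and none of the 6 passed the test. Pdgfra, the receptor for the mitogen PDGF-A, had 6.69, 7.04 and 9.52 CPM in knockouts 14, 16 and 18, against 4.98, 8.73 and 11.7 CPM in wild types 13, 15 and 17. Cspg4, the gene of the NG2 proteoglycan, had 2.45, 2.53 and 5.65 CPM in knockouts 14, 16 and 18, against 3.07, 3.44 and 3.67 CPM in wild types 13, 15 and 17. Knockout library 18 was the high library for Cspg4, while wild type 17 was the high one for Pdgfra. Lhfpl3, a membrane protein gene widely used to mark precursors, had the log2 fold change farthest from 0 of all members, at -0.61 (SE 0.40; edgeR's quasi-likelihood test gave an adjusted p of 1.00). Lhfpl3 stood at 1.63, 2.25 and 2.399 CPM in knockouts 14, 16 and 18, against 1.83, 3.36 and 4.400 CPM in wild types 13, 15 and 17, and the groups overlapped because wild type 13 lay below knockouts 16 and 18. The counts of Lhfpl3 were 20, 16 and 62 counts in knockouts 14, 16 and 18, against 43, 85 and 115 counts in wild types 13, 15 and 17.

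Neu4, a sialidase gene of the precursor stage, averaged 3.196 ± 1.09 CPM over the knockouts, against 2.72 ± 1.44 CPM over the wild types (SD, n = 3 each). C1ql1, which encodes a secreted C1q-like protein, averaged 4.43 ± 0.973 CPM over the knockouts, against 4.19 ± 1.81 CPM over the wild types. Cacng4, an auxiliary subunit of AMPA receptors, averaged 6.02 ± 1.93 CPM over the knockouts, against 6.58 ± 0.640 CPM over the wild types, and here knockout 18 was the lowest of all 6 libraries at 3.83 CPM. Over all 6 libraries the precursor genes thus had no common order. Their summed level was 26.3, 25.3 and 29.5 CPM in knockouts 14, 16 and 18, against 19.8, 29.8 and 36.2 CPM in wild types 13, 15 and 17. Of these 6 genes 3 had a log2 fold change above 0 and 3 below, with a median of -0.022. This median took the opposite sign without knockout 16 (0.042), wild type 15 (0.0052) or wild type 17 (0.17). It moved to -0.072, -0.17 and -0.22 without knockout 14, knockout 18 and wild type 13. With all 6 libraries it was 0.064 in limma voom and 0.19 with the first number of the library titles as a covariate. DESeq2 and edgeR's exact test kept it below 0, at -0.015 and -0.022.

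Genes of newly formed, premyelinating oligodendrocytes ranked the libraries alike. Gpr17, a receptor expressed for a short window before myelination, had 9.62, 6.76 and 12.8 CPM in knockouts 14, 16 and 18, against 6.47, 11.02 and 12.6 CPM in wild types 13, 15 and 17. Bcas1, which marks cells that are starting to make myelin, had 6.44, 4.08 and 9.56 CPM in knockouts 14, 16 and 18, against 3.15, 4.31 and 8.04 CPM in wild types 13, 15 and 17. In both genes knockout 18 was the highest of its genotype and knockout 16 the lowest, and wild type 17 was the highest of its genotype and wild type 13 the lowest. Enpp6, a choline phosphodiesterase gene of the same stage, had 20, 2 and 53 counts in knockouts 14, 16 and 18, against 29, 39 and 42 counts in wild types 13, 15 and 17. The 2 counts of library 16 lie below the floor of 3 counts used here, which is 0.422 CPM in that library. The means of Bcas1 were 6.69 ± 2.74 CPM over the knockouts, against 5.16 ± 2.55 CPM over the wild types (SD, n = 3 each; log2 fold change 0.40, SE 0.42), and the groups overlapped over most of their range. The median of the 3 genes was -0.025. It was -0.28 without knockout 18, -0.16 without wild type 13 and -0.010 without knockout 14. Without knockout 16 it was 0.34, without wild type 15 0.051 and without wild type 17 0.18. All libraries kept, it was 0.084 in limma voom and 0.23 with the first number of the library titles as a covariate. DESeq2 and edgeR's exact test kept it below 0, at -0.019 and -0.028.

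The myelin and membrane protein genes had the largest median standard deviation of log2(CPM + 1) within a genotype of the 5 role groups, while by the median fold of highest over lowest library the newly formed genes, at 3.03, and the myelin genes, at 2.998, were close. Mbp, myelin basic protein, which packs the inner faces of the myelin membrane together, had 125, 66.7 and 201 CPM in knockouts 14, 16 and 18, against 67.6, 111 and 145 CPM in wild types 13, 15 and 17. The lowest libraries of both genotypes were about level and the highest was knockout 18, 3.01-fold above knockout 16. The means of Mbp were 131 ± 67.3 CPM over the knockouts, against 108 ± 38.6 CPM over the wild types (SD, n = 3 each), and the log2 fold change was 0.28, SE 0.40. Mog, a glycoprotein of the outermost myelin layer, had 19.98, 7.46 and 30.1 CPM in knockouts 14, 16 and 18, against 11.4, 16.1 and 18.7 CPM in wild types 13, 15 and 17. All 3 wild-type libraries of Mog lay inside the range of the knockout libraries.

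Mag, the adhesion protein that faces the axon, had 41.3, 20.4 and 75.8 CPM in knockouts 14, 16 and 18, against 25.5, 43.9 and 57.9 CPM in wild types 13, 15 and 17. Mal, a proteolipid of myelin membrane rafts, had 54.98, 26.6 and 95.5 CPM in knockouts 14, 16 and 18, against 39.8, 58.7 and 93.2 CPM in wild types 13, 15 and 17. Mobp, a small basic protein of compact myelin, had 46.00, 26.8 and 83.7 CPM in knockouts 14, 16 and 18, against 33.6, 43.3 and 81.6 CPM in wild types 13, 15 and 17. For each of these genes knockout 16 was the lowest library and knockout 18 the highest, and the wild-type values lay between them. The log2 fold changes were 0.13, SE 0.45 for Mag, -0.10, SE 0.45 for Mal and -0.0068, SE 0.44 for Mobp. Cldn11, the claudin that seals the layers of myelin, had 68.8, 43.8 and 99.7 CPM in knockouts 14, 16 and 18, against 52.8, 67.8 and 95.2 CPM in wild types 13, 15 and 17, with the same pair of libraries at the ends.

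The remaining genes with a myelin role kept this order in part. Opalin, a glycoprotein of the myelin paranode, averaged 7.57 ± 3.67 CPM over the knockouts, against 6.75 ± 2.74 CPM over the wild types. Ermn, ermin, a cytoskeletal protein of mature oligodendrocytes, averaged 11.1 ± 4.41 CPM over the knockouts, against 10.8 ± 5.55 CPM over the wild types, and Tspan2, a tetraspanin, averaged 17.8 ± 8.005 CPM over the knockouts, against 18.2 ± 7.26 CPM over the wild types (SD, n = 3 each). In Ermn and Tspan2 wild type 17 was the highest of all libraries and knockout 14 the highest knockout. Gpr37, a receptor of maturing oligodendrocytes that is also known from astrocytes in culture, went the other way. Gpr37 had 36.9, 51.96 and 47.6 CPM in knockouts 14, 16 and 18, against 51.4, 49.1 and 33.9 CPM in wild types 13, 15 and 17, so its lowest wild-type value was in library 17, where the myelin genes were at their wild-type highest. Of the 10 genes of this group 6 had a log2 fold change above 0 and 4 below. Their median of 0.038 was -0.23 without knockout 18 and -0.17 without wild type 13, against 0.32 without knockout 16, 0.11 without knockout 14 and 0.44 without wild type 17.

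**Figure D2:**
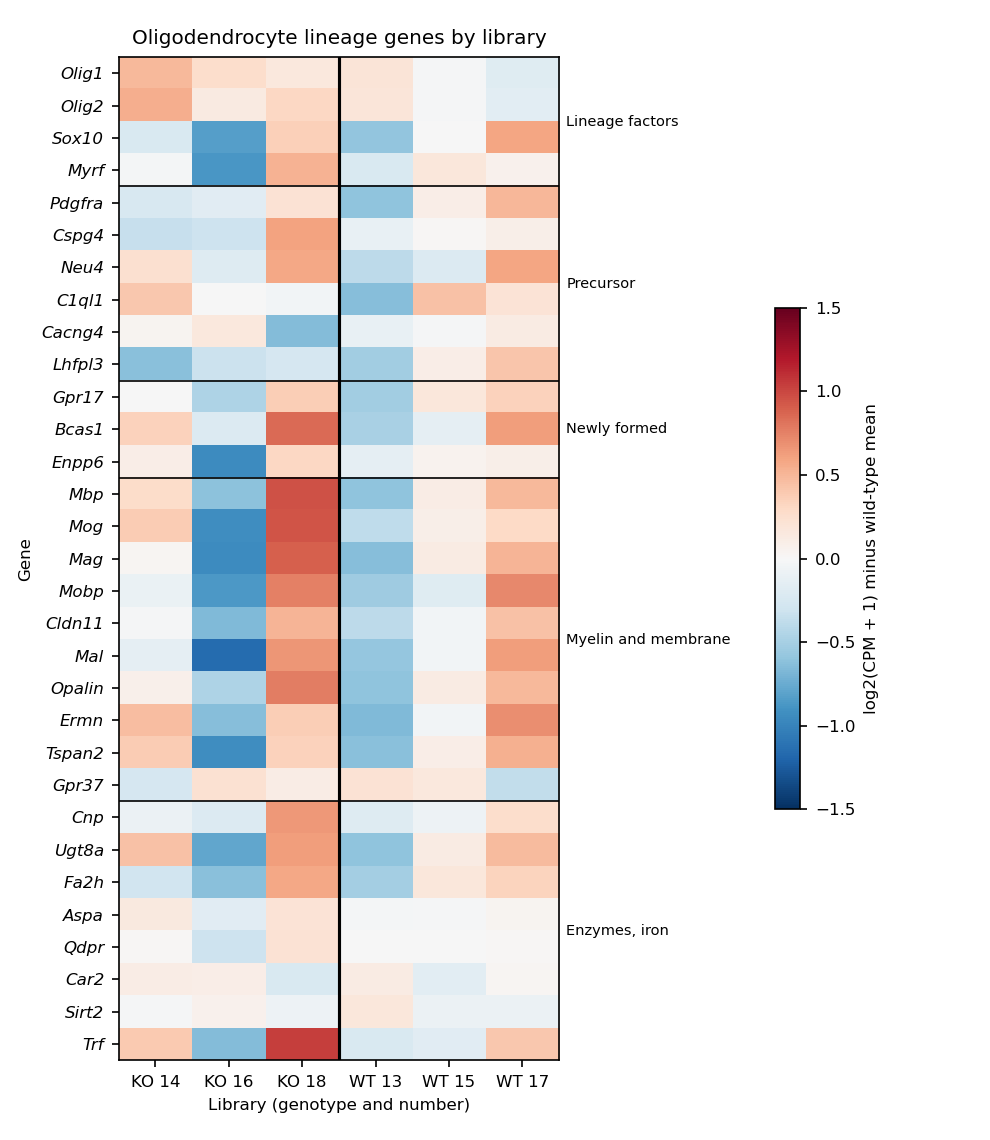
Heat map of the 31 members (rows, by role) in the 3 knockout and 3 wild-type libraries (columns), with colour for log2(CPM + 1) minus the mean of the wild-type libraries. Most myelin, newly formed and lipid enzyme genes were low in knockout 16 and wild type 13 and high in knockout 18 and wild type 17, while Olig1, Olig2, Aspa, Qdpr, Car2 and Sirt2 varied little.

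Enzyme genes of the lineage split into a variable and a steady set. Ugt8a, the galactosyltransferase that makes the main myelin galactolipid, had 20.2, 8.17 and 23.3 CPM in knockouts 14, 16 and 18, against 9.37, 16.1 and 20.9 CPM in wild types 13, 15 and 17. Fa2h, which hydroxylates the fatty acids of those lipids, averaged 3.75 ± 2.16 CPM over the knockouts, against 3.95 ± 1.39 CPM over the wild types (SD, n = 3 each). Trf, transferrin, the iron carrier that oligodendrocytes make in quantity, had 72.7, 34.8 and 114 CPM in knockouts 14, 16 and 18, against 46.7, 48.9 and 73.1 CPM in wild types 13, 15 and 17. Both Ugt8a and Trf were lowest in knockout 16 and highest in knockout 18. Trf had a log2 fold change of 0.40, SE 0.38 and Ugt8a one of 0.18, SE 0.40. Cnp, a phosphodiesterase on the cytoplasmic side of myelin, had 315, 291 and 526 CPM in knockouts 14, 16 and 18, against 294, 318 and 403 CPM in wild types 13, 15 and 17, where only knockout 18 and wild type 17 stood clear of the others.

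The steady set held Car2, Sirt2, Qdpr and Aspa. Car2, carbonic anhydrase II, had 700.4, 696 and 553 CPM in knockouts 14, 16 and 18, against 709, 584 and 666 CPM in wild types 13, 15 and 17. Its highest and lowest libraries differed 1.28-fold, and the lowest was knockout 18. Sirt2, a tubulin deacetylase, differed 1.201-fold between its extreme libraries and averaged 204 ± 9.82 CPM over the knockouts, against 207 ± 22.2 CPM over the wild types (SD, n = 3 each). Qdpr, which regenerates the cofactor tetrahydrobiopterin, averaged 103 ± 18.3 CPM over the knockouts, against 104 ± 0.896 CPM over the wild types. The wild-type libraries of Qdpr lay within 2 CPM of each other. Aspa, aspartoacylase, which frees acetate from N-acetylaspartate for myelin lipids, averaged 14.8 ± 2.14 CPM over the knockouts, against 14.1 ± 0.420 CPM over the wild types. The 95% interval of the log2 fold change ran from -0.33 to 0.30 for Sirt2, from -0.36 to 0.35 for Car2 and from -0.37 to 0.35 for Qdpr. Over the 8 genes of this group, 4 above and 4 below 0, the median was 0.037, with -0.081 without knockout 18, 0.21 without knockout 16, 0.15 without wild type 17, 0.068 without wild type 15 and 0.061 without wild type 13.

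**Figure D3:**
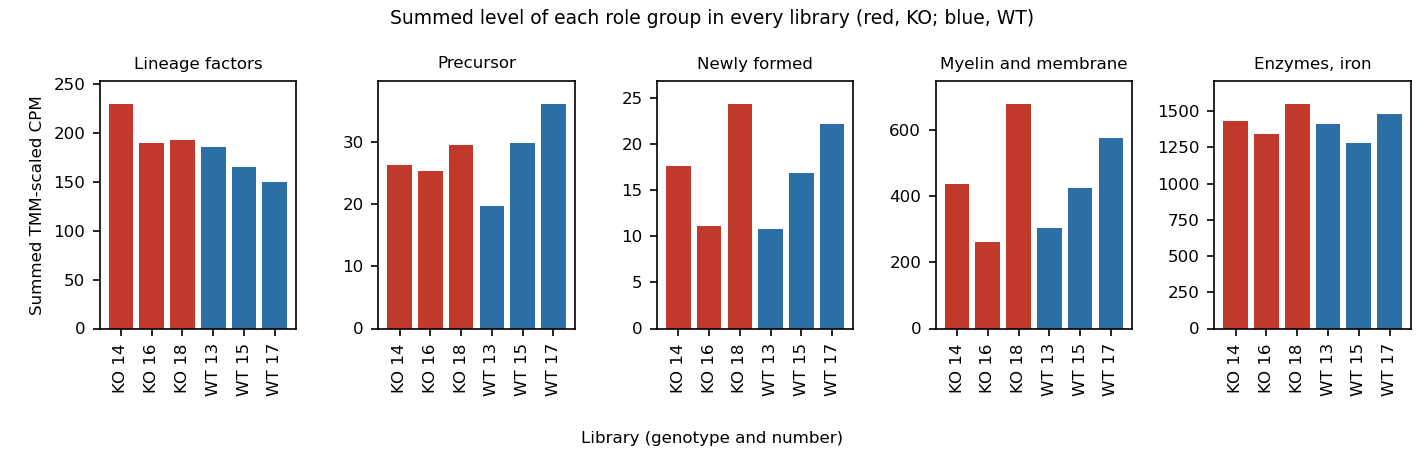
Summed TMM-scaled CPM of each role group (panels, each vertical axis from 0) in every library, knockout in red and wild type in blue. The myelin and membrane group ran from 263 to 680 CPM in the knockout libraries and from 303 to 577 CPM in the wild-type libraries. The enzyme group stayed between 1282 and 1554 CPM in all 6, and Car2 alone held 553 to 709 CPM of that sum. Within the enzyme group the fold of highest over lowest library ran from 1.20 for Sirt2 to 3.28 for Trf.

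The spread between libraries of one genotype was wider for most members than for the bulk of the genes, though not than for every other marker list. The median standard deviation of log2(CPM + 1) within a genotype was 0.48 for the members, against 0.24 for all tested genes and 0.23 for the 13059 tested genes within the members' range of mean level. It was 0.48 for the neuron markers and 0.78 for the blood cell genes, and 0.37, 0.32 and 0.25 for the astrocyte, endothelial and mural, and microglia markers. By role the median was 0.68 for the myelin and membrane genes, 0.48 for the newly formed genes, 0.41 for the precursor genes, 0.35 for the lineage factors and 0.28 for the enzymes. The highest library exceeded the lowest by a median of 2.70-fold over the members and of 1.57-fold over the tested genes in the same range of levels. Knockout library 18 was the highest library for 18 of the 31 members and for 19.96% of all tested genes. Knockout library 16 was the lowest for 16 members and for 18.2% of all tested genes. These counts describe the libraries. They are no test, since the members come from the same 6 libraries.

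**Figure D4:**
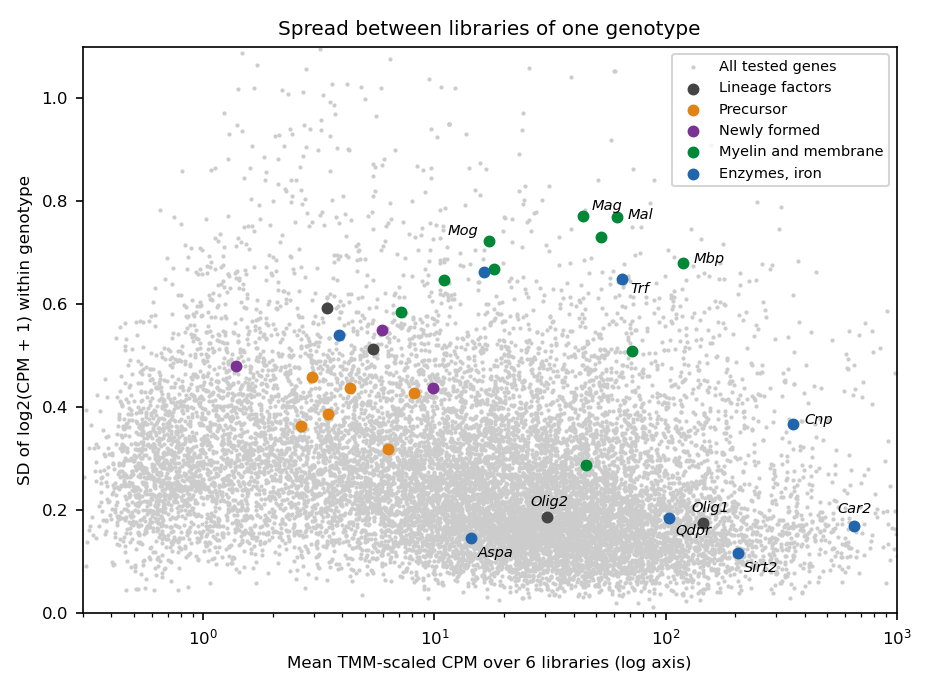
Each point is a gene, with its mean TMM-scaled CPM over 6 libraries on a log axis and the standard deviation of log2(CPM + 1) within genotype on the vertical axis; grey points are all tested genes inside the plotted range and coloured points are the members. Mag, Mal, Mobp, Mog and Mbp lie between 0.68 and 0.77, well above the bulk of genes of the same level, and Sirt2, Aspa, Car2, Olig1, Qdpr and Olig2 lie between 0.12 and 0.19.

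The order of the libraries was shared by most members. In 18 of the 31 members the level ran upward from library 16 to 14 to 18 in the knockout and from library 13 to 15 to 17 in the wild type, which held for 10.1% of all tested genes. The 18 members were Sox10, Neu4, Gpr17, Bcas1, Enpp6, Mbp, Mog, Mag, Mobp, Cldn11, Mal, Opalin, Cnp, Ugt8a, Fa2h, Aspa, Qdpr and Trf. The order was noticed in these data and is given as a description. It includes near ties: Aspa had 13.84 and 13.86 CPM in wild types 13 and 15. Qdpr ran only from 102.8 to 104.6 CPM over the wild types. By role it held for 7 of the 10 myelin and membrane genes, 6 of the 8 enzyme and iron genes, 3 of the 3 newly formed genes, 1 of the 4 lineage factors and 1 of the 6 precursor genes. In the wild-type libraries alone 5 of the 6 precursor genes kept the order, and in the knockout libraries 1 of the 6. In 0 members was the order reversed in both genotypes, which held for 9.71% of all tested genes.

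Promoter sequences were read from RefSeq (build GRCm38.p6, the assembly also called mm10) for the 20 members with an entry. Shown are the 250 bases before the annotated start of the members, among those with an entry that may be shown and at least 20 counts in every library, whose highest and lowest libraries differed most (Mog and Mag) and least (Sirt2 and Aspa). Capitals mark matches to ACAAAG or ACAATG (cores bound by SOX factors), CAGCTG (an E-box) and TATAAA, searched on both strands, with overlapping matches merged. Sequences run 5′ to 3′ on the strand of the gene. The windows of Mog, Mag and Sirt2 abut the RefSeq span of the gene, while the start that the table gives for Aspa lies inside the span of Aspa, 73304987 to 73326876.
Mog, chr17:37023399-37023648, minus strand: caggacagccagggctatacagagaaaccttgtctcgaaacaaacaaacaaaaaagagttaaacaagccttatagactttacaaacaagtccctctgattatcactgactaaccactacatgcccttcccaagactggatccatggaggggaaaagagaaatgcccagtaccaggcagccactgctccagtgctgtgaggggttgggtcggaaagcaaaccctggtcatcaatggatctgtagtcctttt
Mag, chr7:30914923-30915172, minus strand: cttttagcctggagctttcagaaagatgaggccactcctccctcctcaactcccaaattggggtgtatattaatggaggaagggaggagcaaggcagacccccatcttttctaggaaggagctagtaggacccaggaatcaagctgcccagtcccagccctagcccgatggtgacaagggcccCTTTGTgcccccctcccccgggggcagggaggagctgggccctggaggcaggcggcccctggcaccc
Sirt2, chr7:28766502-28766751, plus strand: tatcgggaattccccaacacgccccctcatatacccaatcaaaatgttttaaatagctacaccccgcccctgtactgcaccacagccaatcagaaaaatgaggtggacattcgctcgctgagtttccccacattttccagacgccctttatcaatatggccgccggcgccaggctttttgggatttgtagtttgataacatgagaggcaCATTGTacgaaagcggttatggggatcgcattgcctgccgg
Aspa, chr11:73324638-73324887, minus strand: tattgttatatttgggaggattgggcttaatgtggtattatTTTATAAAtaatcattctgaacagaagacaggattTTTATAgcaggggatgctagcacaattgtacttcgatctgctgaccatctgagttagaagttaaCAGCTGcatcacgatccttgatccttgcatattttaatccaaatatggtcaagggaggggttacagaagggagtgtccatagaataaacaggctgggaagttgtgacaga
A SOX core stood in the window of 8 of the 20 members (40%) and of 25.4% of 27025 promoters. An E-box stood in 2 of the 20 (10.0%), against 12.7% of all promoters, and TATAAA in 2 (10.0%), against 13%. Among the sequences shown, Mag and Sirt2 each had 1 SOX core, Aspa had an E-box and TATAAA, and Mog had none of these letters. No motif share was tested, and a match does not show binding.

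Within a library, the balance of myelin to precursor RNA did not separate the genotypes. The summed myelin and membrane genes over the summed precursor genes gave ratios of 16.6, 10.4 and 23.1 in knockouts 14, 16 and 18, against 15.3, 14.3 and 15.9 in wild types 13, 15 and 17. The size of such a ratio depends on gene lengths, so it is compared between libraries only. It averaged 16.7 ± 6.35 over the knockouts, against 15.2 ± 0.846 over the wild types (SD, n = 3 each). Its 3 wild-type values lay close together and inside the range of the knockout values. The ratio of Mbp to Pdgfra was 18.7, 9.48 and 21.1 in knockouts 14, 16 and 18, against 13.6, 12.7 and 12.3 in wild types 13, 15 and 17. Here knockouts 14 and 18 lay above all wild-type libraries and knockout 16 below them.

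Markers of other cell types also varied between libraries, but not all in the order of the lineage genes. The 18 neuron markers, none of them at a count of 0 in any library, summed to 2845, 2543 and 3439 CPM in knockouts 14, 16 and 18, against 1904, 3005 and 3312 CPM in wild types 13, 15 and 17. Within each genotype the neuron sum ranked the libraries as the myelin sum did. The 18 astrocyte markers summed to 35385, 37449 and 31322 CPM in knockouts 14, 16 and 18, against 39227, 35188 and 31443 CPM in wild types 13, 15 and 17, which is the reverse order within each genotype. The order of the lineage genes held for 8 of the 18 neuron markers and 0 of the 18 astrocyte markers, and the reverse order for 10 of the 18 astrocyte markers. The part of the neuron and astrocyte RNA in the spread of the lineage genes was not tested.

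The myelin and membrane sum was also set against the neuron sum of the same library. The ratio was 0.153, 0.103 and 0.198 in knockouts 14, 16 and 18, against 0.159, 0.141 and 0.174 in wild types 13, 15 and 17. It averaged 0.152 ± 0.0473 over the knockouts, against 0.158 ± 0.0163 over the wild types (SD, n = 3 each), and the wild-type values again lay inside the knockout range. The 14 microglia markers summed to 68.03, 59.8 and 59.8 CPM in knockouts 14, 16 and 18, against 83.1, 75.8 and 66.8 CPM in wild types 13, 15 and 17. The 16 endothelial and mural markers summed to 66.6, 77.03 and 70.1 CPM in knockouts 14, 16 and 18, against 72.7, 75.8 and 69.6 CPM in wild types 13, 15 and 17. Neither of these sums kept the order of the myelin genes. The median log2 fold change was 0.067 for the neuron markers, -0.0047 for the astrocyte markers, -0.29 for the microglia markers and 0.038 for the 14 endothelial and mural markers tested. Of the markers of these 4 cell types and the 5 blood cell genes, edgeR's quasi-likelihood test called 0 after adjustment. C1qc, a complement gene of microglia, was the 1 gene at an unadjusted p under 0.05, at 2.202, 0.704 and 2.36 CPM in knockouts 14, 16 and 18, against 4.85, 2.84 and 5.78 CPM in wild types 13, 15 and 17. Of all tested genes 1.77% had an unadjusted p under 0.05 in this test. Every knockout lay below every wild type in 3 of the 14 microglia markers, C1qc among them, against 3.25% of all tested genes. The authors' deposited table gives C1qc an adjusted p of 0.0346, where 0.573% of its features were under 0.05. That table holds the 2 entries of a library as separate columns, and no source used here names its test. In edgeR's quasi-likelihood test on the 6 libraries C1qc had an adjusted p of 0.99998.

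**Figure D5:**
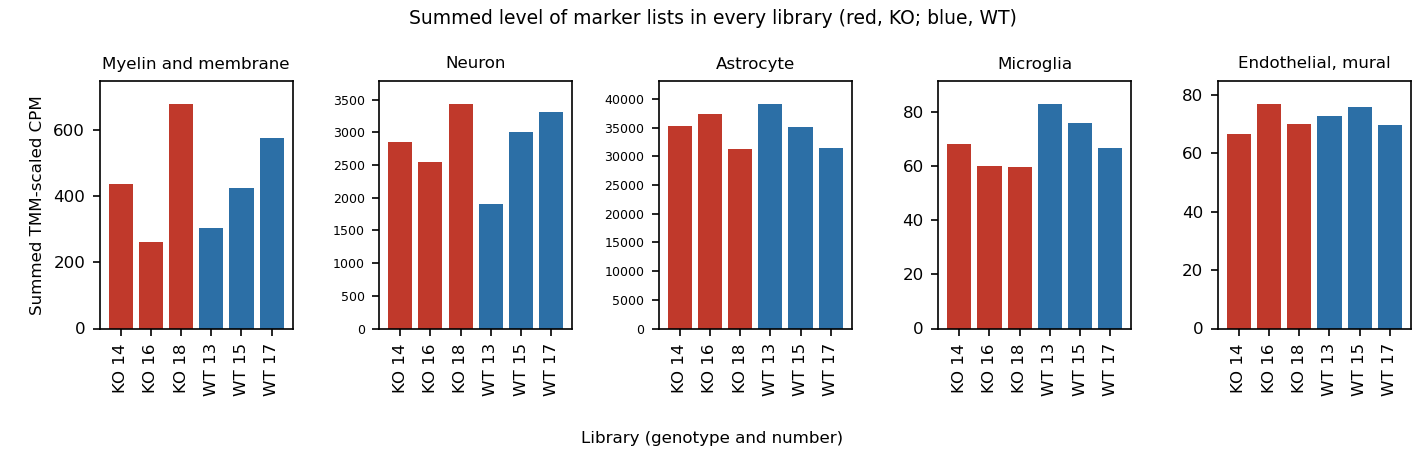
Summed TMM-scaled CPM of the myelin and membrane members and of markers of 4 other cell types (panels, each vertical axis from 0) in every library, knockout in red and wild type in blue. The myelin and neuron sums were lowest in knockout 16 and wild type 13 of their genotypes, where the astrocyte sums were highest.

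Other genes of the lineage, listed apart from the members, also gave no called difference, but their summed level ranked the libraries the other way. The wider list summed to 3307, 3499 and 2932 CPM in knockouts 14, 16 and 18, against 3360, 3248 and 2906 CPM in wild types 13, 15 and 17. Its myelin and membrane genes summed to 1934, 2149 and 1488 CPM in knockouts 14, 16 and 18, against 1999.5, 1887 and 1609 CPM in wild types 13, 15 and 17. Within each genotype both sums had the order of the astrocyte markers and the reverse of that of the myelin members. Of the 59 listed, 58 were in the table and 57 were tested, with 34 log2 fold changes above 0, 23 below and a median of 0.10. In edgeR's quasi-likelihood test 0 of them were called in either direction after adjustment. The 1 gene at an unadjusted p under 0.05 was Klk6, a secreted protease gene of mature oligodendrocytes, at 3.02, 1.13 and 1.43 CPM in knockouts 14, 16 and 18, against 0.724, 1.15 and 0.536 CPM in wild types 13, 15 and 17, with a log2 fold change of 1.22, SE 0.52. Its groups overlapped, since wild type 15 lay above knockout 16. Of all tested genes 1.77% had an unadjusted p under 0.05 in the same test. Pcdh15, a protocadherin gene of precursors, averaged 4.896 ± 1.61 CPM over the knockouts, against 3.004 ± 0.978 CPM over the wild types (SD, n = 3 each; log2 fold change 0.72, SE 0.35). Vcan, which encodes the proteoglycan versican, was the 1 gene of the 57 with every knockout above every wild type, at 4.73, 4.65 and 5.18 CPM in knockouts 14, 16 and 18, against 3.28, 4.07 and 4.59 CPM in wild types 13, 15 and 17 (log2 fold change 0.29, SE 0.25). Kif19a, a kinesin gene, was the 1 gene with every knockout below (log2 fold change -0.49, SE 0.25). Kif19a stood at 3.43, 4.65 and 5.26 CPM in knockouts 14, 16 and 18, against 6.73, 6.44 and 5.701 CPM in wild types 13, 15 and 17. Over all tested genes 2.95% had every knockout above every wild type and 3.25% had every knockout below.

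Factors outside the members included Sox6, which holds precursors undifferentiated, at 36.01 ± 6.59 CPM over the knockouts, against 43.4 ± 1.77 CPM over the wild types, Sox8, a relative of Sox10, at 98.6 ± 8.88 CPM over the knockouts, against 89.8 ± 16.2 CPM over the wild types, and Nkx2-2, a homeobox factor of differentiation, at 7.61 ± 3.06 CPM over the knockouts, against 6.49 ± 2.04 CPM over the wild types (SD, n = 3 each). Sox8 is also known from astrocytes. The other genes that the naming rule takes were Rlbp1 (0.31), Tmem163 (-0.49), Mycl (0.33), Cd9 (0.41), Tmem125 (0.38), Gjb1 (0.40), Hhip (0.47) and Dock5 (-0.29), each with its log2 fold change. None passed the adjusted threshold. The order of the members held for 21 of the 57 wider lineage genes, 8 of them among the 15 myelin and membrane genes. The reverse order in both genotypes held for 6 of the 57 (10.5%), of which 4 were among the 12 precursor genes and 2 among the myelin and membrane genes.

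The first number in the library titles, 5 or 6, divides the libraries unevenly by genotype, and the labels do not say what it marks. Number 5 holds knockouts 14 and 16 and wild type 13, and number 6 holds knockout 18 and wild types 15 and 17. Within number 5 the knockout minus wild-type difference of log2(CPM + 1) had a median of 0.11 over the members, with 23 of 31 above 0. Within number 6 the median was 0.31, with 26 of 31 above 0. For the myelin and membrane genes the medians were 0.14 with 8 of 10 above 0 and 0.41 with 10 of 10 above 0, and for the precursor genes 0.30 and -0.22. With 1 library of a genotype in each number these differences have no replicate check. Most members shared an order of the libraries, so members above 0 are not independent of each other. The shares of all tested genes above 0 within each number, and in the fit that follows, were not counted here. With the number as a covariate in edgeR's fit the median log2 fold change of the members was 0.23, with 26 of 31 above 0 and 0 called (lowest adjusted p in edgeR's test 0.971, and between 0.999 and 1.00 in the other settings run for single members).

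Knockout libraries 14 and 16 also held the large ribosomal RNA share, and their counts without those features were 10146188 and 6012112, while the remaining libraries held 19601657 or more. Without these 2 libraries, an alternative chosen after the data were seen, the median of the members was 0.50 with 0 called, and it then rests on knockout 18 alone. With a covariate for the ribosomal RNA share, also chosen after the data were seen, the median was 0.45 with 0 called. Genotype and ribosomal RNA share are linked in these libraries, and the part of that share in the member values was not tested. By role, the median without these libraries and the median with the covariate were 0.65 and 0.60 for the myelin and membrane genes, 0.36 and 0.34 for the lineage factors, and 0.035 and -0.020 for the precursor genes.

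The authors' deposited table holds all 31 members, and 0 have an adjusted p under 0.05 there, against 0.573% of its 14843 features. In the authors' deposited table Olig2 has a log2 fold change of 0.35 with an adjusted p of 0.333, and Olig1 one of 0.30 with an adjusted p of 0.584. These 2 are the members with an unadjusted p under 0.05 in the authors' test, which no source used here names. The share of all features under that level was not counted here, so these 2 cannot be set against it. That table gives a signal for each of 12 entries, so the pair of entries of a library stands as separate columns in it. RefSeq spans of 13 members overlap another gene, and for 3 of them that gene codes for protein: Lims2 with Gpr17, Dnajc7 with Cnp and Spata22 with Aspa. The library kit keeps strand, but no source used here gives the strand setting of the counting, so reads of such pairs cannot be told apart with certainty.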

How the data were processed

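The submitters' processing notes name STAR 2.5.3a, RSEM 1.3.0, edgeR and the build mm10, without roles. The authors deposited expected counts per gene for 12 entries, unscaled, with RSEM named per the file headers. Their comparison table holds, per the file headers, a log2 fold change and mean log2 CPM, a p-value and its adjusted form, and a signal for every entry that the authors had scaled. No source used here names the authors' test. The sign of Fmr1 in that table shows that its fold changes put knockout over wild type.

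Each library has 2 entries. The median chi-square per feature between the entries of a library was 0.467 to 0.494, about the sampling noise, while the total chi-square per degree of freedom was 1.17 to 2.33, above it. As entries of 1 library they were summed, rounded and counted as 1 sample, to give 3 knockout and 3 wild-type libraries. Genes were kept by filterByExpr (14990), scaled by TMM and tested with the quasi-likelihood F test of edgeR 4.0.16 (R 4.3.3) with Benjamini-Hochberg adjustment over all genes and a threshold of 0.05. The SE of a log2 fold change came from the F statistic, with 8.24 total degrees of freedom for 95% intervals. Spread and library medians used log2(CPM + 1). DESeq2 1.42.0, edgeR's exact test, limma 3.58.1 voom and the settings in the closing section were alternatives. The fit was tested on simulated data. One count equals between 0.0387 and 0.141 CPM in knockout libraries and between 0.0383 and 0.0426 CPM in wild-type libraries, and low levels are limited by these counts.

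The members, role groups and marker lists were chosen with earlier results of these data known. The text names all members, up to 3 genes per other list by smallest p, Fmr1 and the ribosomal RNA features; of the endothelial, blood, neuron and astrocyte lists only sums and medians are given. Transcript lengths were not used here, so levels of different genes are not compared per length.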

Additional observations from a re-analysis of the deposited data

How the results depend on the processing

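No paired analysis was possible because the genotypes share no library number. The count of members called stayed at 0 in each of the 15 alternatives, as did that of the wider lineage genes. Over all genes the quasi-likelihood test called 0, DESeq2 8, edgeR's exact test 9, the fit without a count filter 6, the fit with a covariate for the ribosomal RNA share 1, and fits without 1 library 0 to 2. Small member values changed sign easily: 26 of 31 did so in some of the 13 settings run for single members, and Olig1, Olig2, Bcas1, Aspa and Lhfpl3 did not. Without 1 library at a time these moved over 0.21 to 0.41 for Olig1, 0.23 to 0.44 for Olig2, 0.040 (without knockout 18) to 0.87 (without wild type 17) for Bcas1, 0.0024 (without knockout 18) to 0.19 (without knockout 16) for Aspa and -0.88 (without wild type 13) to -0.31 (without wild type 17) for Lhfpl3. The cause was not tested.

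Log2 fold changes took the opposite sign as follows. DESeq2 gave Car2 0.0014. EdgeR's exact test gave Myrf -0.0027. Limma voom gave Gpr17 0.084, Mobp 0.021, Tspan2 0.068 and Fa2h 0.10. RLE scaling gave Car2 0.0017. The fit with the title number as a covariate gave Sox10 0.10, Pdgfra 0.16, Gpr17 0.23, Enpp6 0.083, Mobp 0.28, Cldn11 0.20, Mal 0.19, Tspan2 0.28, Gpr37 -0.0073, Fa2h 0.25 and Qdpr 0.041. Leaving out 1 library at a time moved the log2 fold changes over these ranges: Sox10 -0.74 to 0.22, Myrf -0.46 to 0.31, Pdgfra -0.39 to 0.19, Cspg4 -0.45 to 0.31, Neu4 -0.025 to 0.78, C1ql1 -0.23 to 0.37, Cacng4 -0.33 to 0.11, Gpr17 -0.28 to 0.18, Enpp6 -0.52 to 0.34, Mbp -0.17 to 0.60, Mog -0.15 to 0.70, Mag -0.45 to 0.47, Mobp -0.53 to 0.45. The same ranges were Cldn11 -0.35 to 0.24, Mal -0.64 to 0.27, Opalin -0.26 to 0.51, Ermn -0.23 to 0.53, Tspan2 -0.28 to 0.30, Gpr37 -0.15 to 0.15, Cnp -0.16 to 0.31, Ugt8a -0.10 to 0.49, Fa2h -0.63 to 0.22, Qdpr -0.14 to 0.12, Car2 -0.071 to 0.10, Sirt2 -0.060 to 0.076, Trf -0.059 to 0.73. Without knockouts 14 and 16 together the medians were 0.50 for all members, 0.51 for the newly formed genes, 0.43 for the enzymes, 0.65 for the myelin and membrane genes and 0.36 for the lineage factors, and with a covariate for the ribosomal RNA share they were 0.45, 0.51, 0.37, 0.60 and 0.34. With CPM on the plain library total, which counts the ribosomal RNA features, the log2 ratio of summed levels was -0.32 for all members, -0.16 for the lineage factors, -0.50 for the precursor genes, -0.37 for the enzymes, -0.23 for the myelin and membrane genes and -0.25 for the newly formed genes, against 0.078, 0.29, -0.080, 0.053, 0.080 and 0.092 with TMM scaling. The small count totals of knockouts 14 and 16 limit the low members most.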

Other observations

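The repeat entries show how far the counts of the lineage genes differed within a library. Summed over the members with at least 20 counts, the chi-square between the 2 entries was 51.1 over 31 members in knockout 14, 18.5 over 24 in knockout 16 and 30.4 over 31 in knockout 18. For wild types 13, 15 and 17 it was 38.95, 27.6 and 34.5 over 31 members each. Set against sampling noise, the chi-square test gave p = 0.0131 for knockout 14 and p from 0.154 to 0.779 for the other libraries. Both entries come from 1 library, so these sums say nothing of the spread between libraries.

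As a share of RNA, the members held 0.259%, 0.216% and 0.298% of the counts outside the ribosomal RNA features in knockouts 14, 16 and 18, against 0.231%, 0.234% and 0.285% in wild types 13, 15 and 17. The 5 blood cell genes summed to 41.3, 73.5 and 130 CPM in knockouts 14, 16 and 18, against 40.9, 88.1 and 64.4 CPM in wild types 13, 15 and 17, with the largest of their 6 sums in knockout 18, as for the myelin genes.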
